A study of Mus musculus with 8 samples.

Results

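The Bex and Tceal genes are short, related genes that lie close together on the X chromosome and are best known from neurons. The group described here holds 10 of them, Bex1, Bex2, Bex3, Bex4, Tceal1, Tceal3, Tceal5, Tceal6, Tceal8 and Tceal9, out of 55335 genes in the count table. They were selected by symbol, with the HDM and saline counts of these same libraries already known, so their differences between HDM and saline are given as a description. Calls from the fit over all genes are stated for them, but a call is no evidence here and no p-value is given for any of the 10. All 10 passed the filter on low counts, which left 17618 genes.

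RNA was measured in vagal ganglia, where the sensory neurons of the vagus nerve have their cell bodies, from WT mice given HDM (commonly short for house dust mite) and from WT mice given saline. Both groups were taken 1.5 h after challenge number 4, and each has 4 libraries. A library is a pool of 6 to 8 ganglia from 3 to 4 mice, so the replicate is a pool and not an animal, and the batch label from 1 to 4 pairs an HDM pool with a saline pool. Library totals ran from 23.95 to 26.67 M (mega-counts) in HDM and from 26.87 to 31.28 M in saline, and neither strain, sex nor age is among the labels used here.

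The BEX proteins (brain expressed X-linked) are small adaptor-like proteins, and BEX1 and BEX3 bind the intracellular part of p75NTR, the neurotrophin receptor encoded by Ngfr. BEX3 is also known as NADE, the p75NTR-associated cell death executor. The TCEAL proteins are named for their similarity to the transcription elongation factor TFIIS, which helps stalled RNA polymerase II to resume, and for most of them little function is known. Both families, and the Armcx and Gprasp genes beside them on the X chromosome, have been reported to share a promoter motif, named BGW, that is linked to expression in brain.

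The genes share sequence at their starts that the choice of genes did not use. In RefSeq promoter windows (GRCm38.p6, 250 bases before to 50 bases after each annotated start), 8 of the 10 genes carried the letters TGACG, then 7 or 9 bases of any kind, then CACGTGA. The elements are shown because most of the 10 genes carry one. Each is printed 5′ to 3′ on the strand of its gene, with the upstream box and the downstream box in capitals.
Bex1: tcTGACGcaagtggCACGTGActag
Bex4: tcTGACGcaagtggCACGTGActag
Bex3: agTGACGcagggccctCACGTGAcccg
Tceal1: tgTGACGcgctcccctCACGTGAccag
Tceal3: ggTGACGcggtgttCACGTGAccgg
Tceal5: ggTGACGttcctgtCACGTGAtcag
Tceal6: ggTGACGctttgctCACGTGActgg
Tceal8: gaTGACGcgatcctCACGTGAccag
Tceal9: ggTGACGtagatctCATGTGAccag
Tceal7: gaTGACAtaatcctCACGTGAttag

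The elements lie at chrX:136215506-136215530 on the minus strand for Bex1, chrX:136138973-136138997 (plus) for Bex4 and chrX:136270264-136270290 (plus) for Bex3. Those of the Tceal genes lie at chrX:136707965-136707991 (plus) for Tceal1, chrX:136666364-136666388 (plus) for Tceal3, chrX:136203889-136203913 (minus) for Tceal5 and chrX:135210691-135210715 (minus) for Tceal6. The element of Tceal8 lies at chrX:136172224-136172248 (minus), that of Tceal9 at chrX:136245074-136245098 (plus) and that of Tceal7, which is not among the 10 genes, at chrX:136223967-136223991 (plus). Tceal9 has CATGTGA in place of the downstream box, and Tceal7 has TGACA in place of the upstream box. No element was found in the window of Bex2.

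The full element was rare. Searched on both strands with either spacing, it was in the windows of 16 of 27025 genes with a RefSeq promoter, or 0.0592%, and 8 of those 16 are among the 10 genes. Another 3 are Armcx1, Armcx4 and Armcx6, out of 8 Armcx and Gprasp genes with a promoter window. The inner letters CACGTG alone, which lie within the longer element, were in 8.09% of genes. With the Tceal9 form of the downstream box and 7 bases between, 3 genes carried the element. The letters were picked after the promoters of these genes had been compared, so the shares describe them and test nothing, and whether the element is the reported BGW motif was not tested. A match does not show that a factor binds there.

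**Figure D1:**
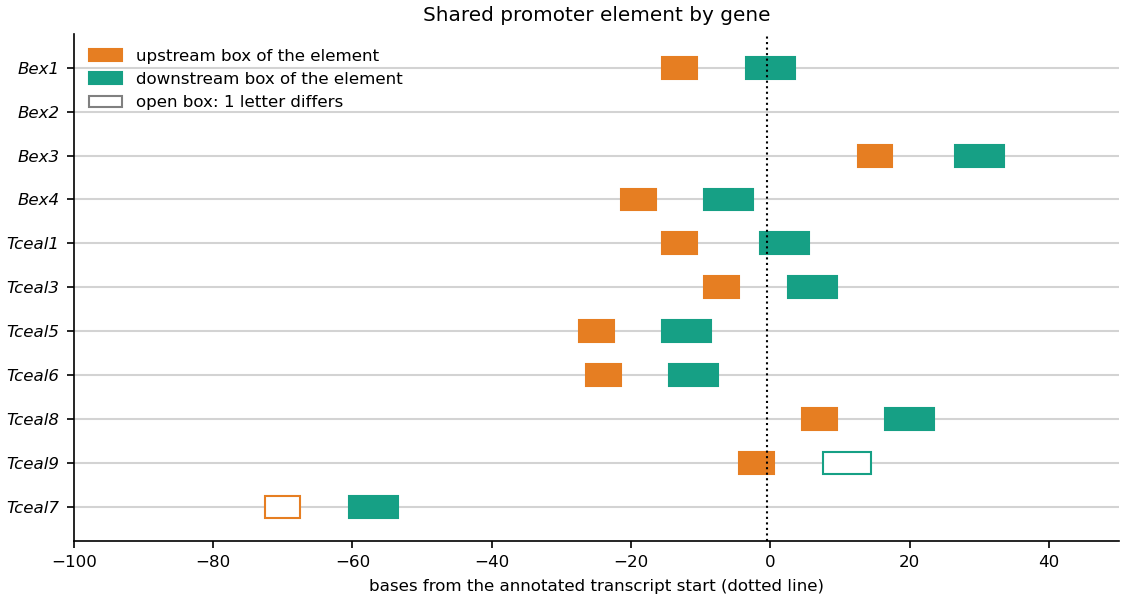
Position of the element in each promoter window, in bases from the annotated transcript start (start base at 0, dotted line); orange boxes are the upstream box, green boxes the downstream box, and open boxes differ by 1 letter. The downstream box begins 15 bases before to 27 bases after the start in the 9 genes that carry a box pair among the 10, 60 bases before it in Tceal7, and is missing from the row of Bex2.

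The element sat at nearly the same place in each gene. The downstream box began 3 bases before the annotated start of Bex1, 9 before that of Bex4, 1 before that of Tceal1, 15 before that of Tceal5 and 14 before that of Tceal6. It began 3 bases after the start of Tceal3, 8 after that of Tceal9, 17 after that of Tceal8 and 27 after that of Bex3. Tceal3 and Tceal5 have a further annotated start from which the same element lies farther upstream.

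The Bex promoters fall into pairs that are near copies. The windows of Bex1 and Bex4 were identical at 98.0% of 294 aligned bases, and those of Bex2 and Bex3 at 84.8% of 263. Every other pair of genes that aligned over at least 60 bases was identical at 71.6% or less. The stretches below end 1 base before the start of Bex1 (chrX:136215514-136215593, minus) and of Bex2 (chrX:136068237-136068316, minus), and their copies lie before Bex4 (chrX:136138910-136138989, plus) and Bex3 (chrX:136270136-136270215, plus). They are shown because each pair is identical over 80 bases.
Bex1 and Bex4: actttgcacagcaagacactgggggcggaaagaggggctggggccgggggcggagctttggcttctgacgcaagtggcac
Bex2 and Bex3: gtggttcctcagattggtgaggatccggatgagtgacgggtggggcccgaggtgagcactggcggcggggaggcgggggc

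The Bex2 start is annotated farther upstream than the Bex3 start in this alignment. As a result the Bex2 window ends just before the bases where Bex3 has its element.

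The promoter pairs are not the pairs of the coding sequences. Each of the 10 genes has its whole coding sequence in 1 exon, and the coding sequences run from 104 codons in Tceal9 to 200 codons in Tceal3, Tceal5 and Tceal6. Bex1 and Bex2, with 128 and 129 codons, were identical at 91.5% of aligned coding bases, whereas Bex1 and Bex4 were at 55.0%. Tceal3 and Tceal6 were identical at 98.2%, Tceal3 and Tceal5 at 87.6%, and Tceal5 and Tceal6 at 87.5%. No other pair among the 10 passed 55.6%. The last 60 coding bases of these close copies are printed with the bases that differ in capitals, since reads from such stretches bear on how the counts can be told apart.
Bex1: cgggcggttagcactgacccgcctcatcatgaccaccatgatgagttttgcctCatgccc
Bex2: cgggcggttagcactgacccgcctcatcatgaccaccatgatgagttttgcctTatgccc
Tceal3: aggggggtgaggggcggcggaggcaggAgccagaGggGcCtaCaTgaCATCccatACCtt
Tceal5: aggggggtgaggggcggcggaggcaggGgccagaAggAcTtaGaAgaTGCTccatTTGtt
Tceal6: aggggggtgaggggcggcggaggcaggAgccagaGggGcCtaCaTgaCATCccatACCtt

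These stretches are at chrX:136214195-136214254 (minus) for Bex1, chrX:136066816-136066875 (minus) for Bex2, chrX:136668077-136668136 (plus) for Tceal3, chrX:136201188-136201247 (minus) for Tceal5 and chrX:135208945-135209004 (minus) for Tceal6, in GRCm38 with GENCODE M21 transcripts. Bex1 and Bex2 differ at 1 of the 60 bases, Tceal5 differs from the other two at 13, and Tceal3 and Tceal6 are the same there. Reads were 50 bases from each end. Of the 50-base words of the transcripts, 49.7% of those of Bex4 also occur in another gene, as do 45.3% for Tceal6, 30.9% for Bex1, 25.4% for Tceal5 and 22.2% for Bex2. The share was 12.9% for Tceal3, 12.3% for Bex3 and 0.806% for Tceal8, and it was 0 for Tceal1 and Tceal9. How reads that fit several genes were counted is not given in the sources used here, so the split of counts between Bex1 and Bex4, Bex1 and Bex2, Bex2 and Bex3, and among Tceal3, Tceal5 and Tceal6 is uncertain. The same holds for Bex4 with Gm12245 (155 shared words) and Gm4322 (149), and for Tceal8 with Gm47178 (21). Bex1 also shares 223 of its 1186 exon bases with Tceal7 on the opposite strand, and the strand setting of the counting is not given either.

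The genes differed in level by more than an order of magnitude when set per gene length. Levels are in CPM (TMM-scaled counts set to the same total in each library), divided by the exon length in kb. Bex2 stood at 166 ± 7.75 CPM per kb in HDM and 136 ± 4.31 in saline (SD, n = 4 each, as for every mean below), and Bex3 at 145 ± 6.43 CPM per kb in HDM and 129 ± 4.21 in saline. These ranked 183 and 217 among the 17618 tested genes, whose median was 4.06 CPM per kb. Tceal9 followed, with 56.7 ± 1.34 CPM per kb in HDM and 54.7 ± 2.04 in saline.

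The other 7 genes lay lower. Bex1 had 25.3 ± 0.535 CPM per kb in HDM and 19.9 ± 0.742 in saline, and Tceal8 had 22.1 ± 1.53 CPM per kb in HDM and 21.2 ± 1.80 in saline. Tceal3 reached 14.2 ± 1.43 CPM per kb in HDM and 11.0 ± 0.731 in saline, and Tceal1 reached 12.1 ± 0.876 in HDM and 12.1 ± 0.604 in saline. Both are longer, at 3546 bases for Tceal3 and 2803 for Tceal1, as is Tceal8 at 2563, while the other 7 genes have 837 to 1263 bases. Tceal5 had 12.1 ± 1.27 CPM per kb in HDM and 8.02 ± 0.745 in saline. Bex4 had 10.1 ± 0.351 CPM per kb in HDM and 8.79 ± 0.492 in saline. Tceal6, the lowest, had 6.41 ± 0.749 CPM per kb in HDM and 4.61 ± 0.393 in saline, and ranked 7433, still above the median of all tested genes.

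**Figure D2:**
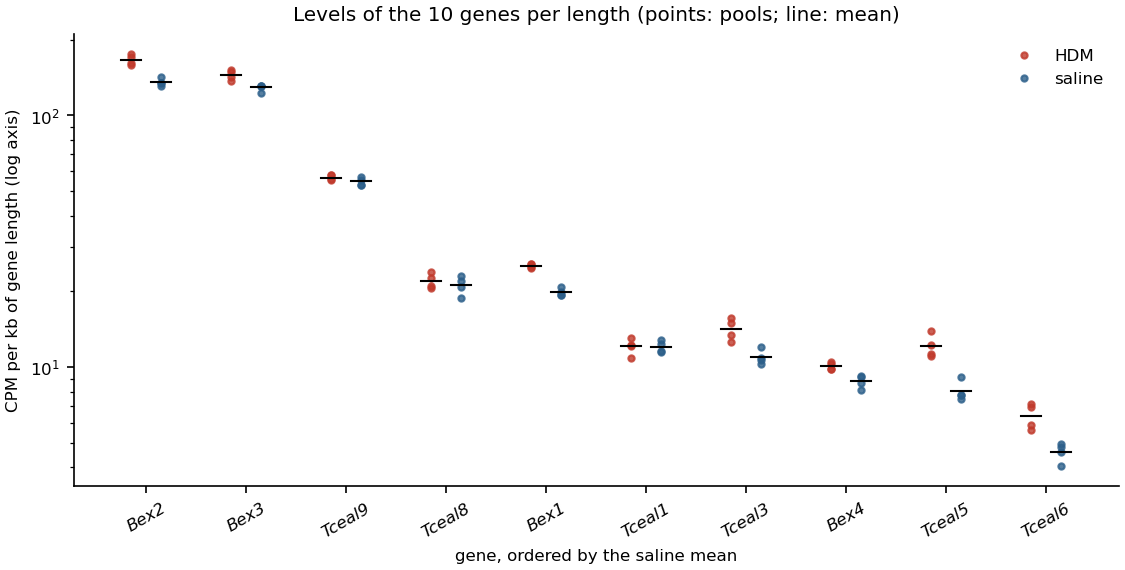
Level of each gene in CPM per kb of exon length (log axis), HDM pools in red left of saline pools in blue, with a line at each mean; genes are ordered by their saline mean. Bex2 and Bex3 sit between 123 and 175 CPM per kb in all 8 libraries, and Tceal6 between 4.06 and 7.14.

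Not every step in that order exceeds the spread between pools. In saline, Bex2 ran from 131 to 142 CPM per kb and Bex3 from 123.0 to 131.5, so their ranges touch, while in HDM the lowest Bex2 value, 158, was above the highest Bex3 value, 152. Tceal8 and Bex1, Tceal1 and Tceal3, and Bex4 and Tceal5 also overlapped in saline. Tceal9 stood apart from its neighbours in both groups.

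Set between HDM and saline, 7 of the 10 genes had higher values in every HDM pool than in any saline pool, and the other 3, Tceal1, Tceal8 and Tceal9, overlapped. Of all tested genes, 6.25% had every HDM pool above every saline pool. In the edgeR quasi-likelihood fit over all tested genes, Bex1, Bex2, Tceal3 and Tceal5 were called higher at an adjusted p under 0.05 and none of the 10 was called lower. Over all tested genes, 244 (1.38%) were called, 216 of them (1.23%) higher. With the replicate block 4 of the 10 were called, beside 531 genes (3.01%) called higher. Since this contrast was known when the genes were chosen, nothing is read from these counts. The median log2 fold change, HDM over saline, was 0.25 over the 10 genes and −0.0055 over all tested genes. In bulk tissue, more or fewer cells of a type and more or less RNA per cell cannot be told apart.

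**Figure D3:**
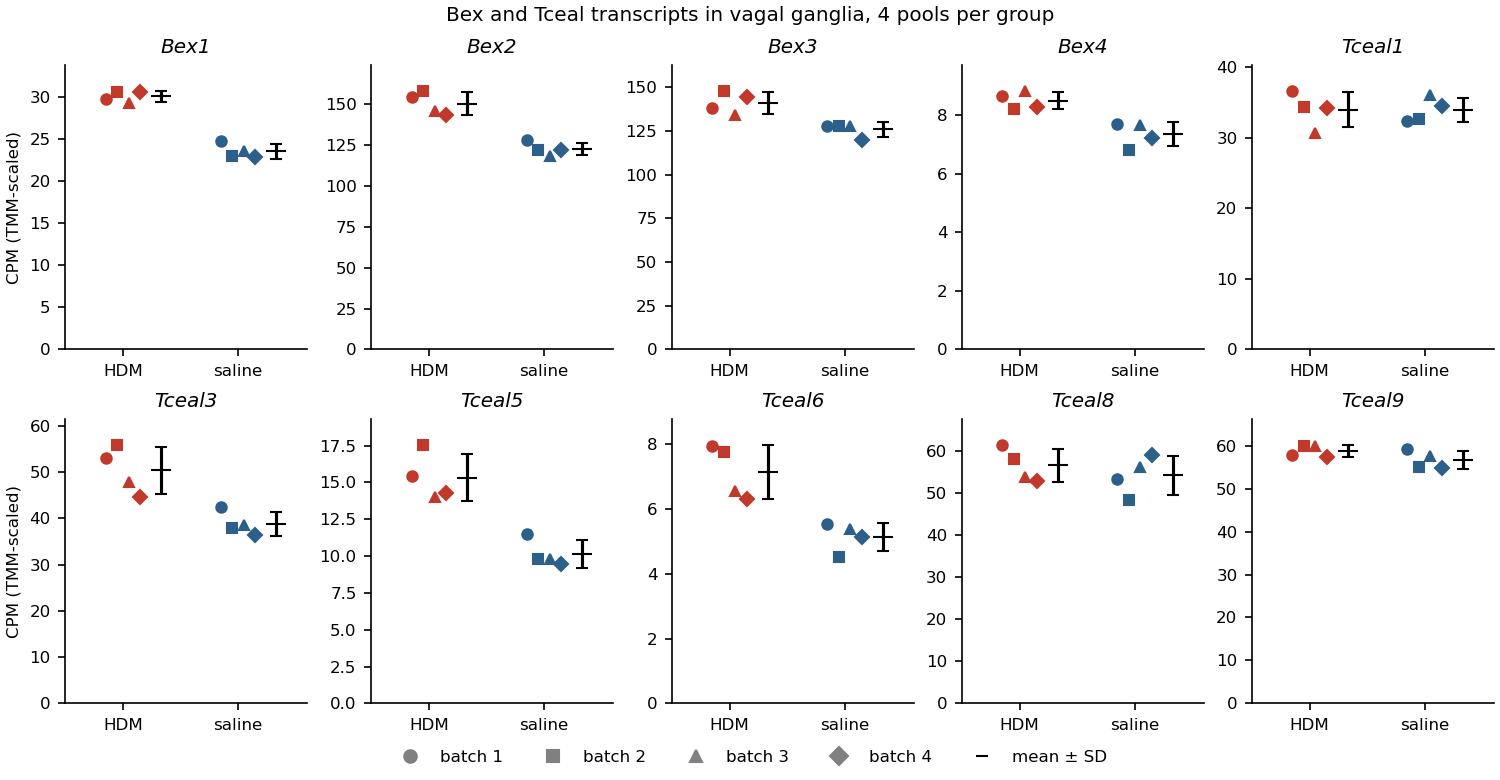
CPM (TMM-scaled, linear axes from 0) of the 10 genes in each pool, HDM in red on the left and saline in blue on the right of each panel, with symbols for the batch and the mean ± SD beside them. For example, Bex1 lies between 29.3 and 30.6 CPM in HDM and between 22.9 and 24.8 CPM in saline, while the 2 groups of Tceal1 overlap.

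Bex1, which binds p75NTR and has been tied to neuronal differentiation and axon regrowth in rodents, had 29.8, 30.6, 29.3 and 30.5 CPM in HDM pools 1 to 4. In saline pools 1 to 4 it had 24.8, 22.9, 23.6 and 22.9 CPM. The groups were well separated, and the HDM pools lay close together. The log2 fold change was 0.35 (SE 0.053), or 1.28-fold, and the difference within batches 1 to 4 was 0.27, 0.41, 0.31 and 0.42 on the log2 scale.

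Bex2, the closest coding relative of Bex1, had 154, 158, 146 and 143 CPM in the HDM pools and 128, 122, 119 and 122 CPM in the saline pools. The lowest HDM pool, HDM 4, was above the highest saline pool, saline 1. Its log2 fold change was 0.29 (SE 0.045), or 1.23-fold, with 0.23 to 0.37 within batches.

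Bex3, the p75NTR-associated cell death executor, had 138, 148, 134 and 145 CPM in the HDM pools and 128, 128, 128 and 119.7 CPM in the saline pools. The groups did not overlap, and the fold change was smaller than that of Bex1 or Bex2. Its log2 fold change was 0.17 (SE 0.045), or 1.12-fold, with 0.065 to 0.27 within batches, and it was not called. Saline 1, 2 and 3 had nearly the same value, and saline 4 stood below them.

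Bex4, whose human counterpart has been described at microtubules, is the least abundant Bex gene among the 10. It had 8.66, 8.22, 8.82 and 8.27 CPM in the HDM pools and 7.69, 6.82, 7.66 and 7.24 CPM in the saline pools. The groups were close without overlapping, and the log2 fold change was 0.21 (SE 0.088), or 1.16-fold, and was not called. Counting error alone allows a coefficient of variation of up to 6.95% per library at its counts, against 3.46% measured between the HDM pools and 5.60% between the saline pools.

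Tceal3, Tceal5 and Tceal6, which share most of their coding sequence, were the Tceal genes with separated groups. Tceal5 had 15.4, 17.6, 14.0 and 14.3 CPM in the HDM pools and 11.5, 9.79, 9.78 and 9.44 CPM in the saline pools. Its log2 fold change of 0.60 (SE 0.094), or 1.51-fold, was the largest of the 10, and it ran from 0.42 to 0.84 within batches. HDM 2 was the highest pool and saline 4 the lowest.

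Tceal3 had 53.1, 55.9, 47.8 and 44.7 CPM in the HDM pools and 42.5, 38.0, 38.5 and 36.4 CPM in the saline pools. HDM 1 and HDM 2 were above HDM 3 and HDM 4, and HDM 4 was only slightly above saline 1. The log2 fold change was 0.38 (SE 0.071), or 1.30-fold, with 0.29 to 0.56 within batches.

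Tceal6 had 7.95, 7.77, 6.56 and 6.30 CPM in the HDM pools and 5.52, 4.53, 5.37 and 5.13 CPM in the saline pools. As with Tceal3, pools 1 and 2 were the highest of the HDM group. The log2 fold change was 0.48 (SE 0.11), or 1.39-fold, with 0.28 to 0.77 within batches, and it was not called. Its coefficient of variation was 11.7% in HDM, the widest of the 10. The counting error was at most 8.39% per library, reached at the 142 counts of saline 2.

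The remaining Tceal genes showed overlapping groups. Tceal1, whose human counterpart was described as a nuclear phosphoprotein that modulates transcription, had 36.6, 34.4, 30.6 and 34.2 CPM in the HDM pools and 32.4, 32.7, 36.0 and 34.5 CPM in the saline pools. Its means were 33.9 ± 2.46 CPM in HDM and 33.9 ± 1.69 CPM in saline, and the fitted log2 fold change was 0.0019 (SE 0.062). It was higher in HDM in batches 1 and 2 and lower in batches 3 and 4.

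Tceal8 had 61.5, 58.1, 53.9 and 53.0 CPM in the HDM pools and 53.4, 48.3, 56.3 and 59.1 CPM in the saline pools. Like Tceal1 it was higher in HDM in batches 1 and 2 and lower in batches 3 and 4, and its log2 fold change was 0.061 (SE 0.066). Tceal9 had 57.9, 60.0, 60.0 and 57.3 CPM in the HDM pools and 59.2, 55.1, 57.7 and 54.8 CPM in the saline pools. It was higher in HDM in 3 of 4 batches by at most 0.12 on the log2 scale, its log2 fold change was 0.053 (SE 0.045), and it was the steadiest Tceal gene between pools, with a coefficient of variation of 2.37% in HDM and 3.74% in saline.

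The pools also differed within a group, though not alike for every gene. HDM 2 held the highest value of 6 of the 10 genes, HDM 1 of 3 and HDM 3 of 1. Saline 4 held the lowest value of 5 genes, saline 2 of 3, saline 3 of 1 and HDM 3 of 1, the last being Tceal1. For Bex4, by contrast, HDM 2 was the lowest HDM pool, and for Tceal8 saline 4 was the highest saline pool. Summed over the 10 genes, the HDM pools had 563, 578, 531 and 536 CPM and the saline pools 493, 468, 481 and 471 CPM, or 552 ± 22.5 CPM in HDM and 478 ± 11.2 CPM in saline. Bex2 and Bex3 make up most of these sums, so the sums follow those genes.

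Ratios of CPM within a library do not depend on the scaling between libraries. The Bex2 to Bex3 ratio was 1.12, 1.07, 1.09 and 0.990 in the HDM pools and 1.00, 0.955, 0.926 and 1.02 in the saline pools. HDM 4 was the only HDM pool with a ratio under 1 in CPM, which are not set per length, and it lay within the range of the saline pools. The Bex1 to Bex2 ratio averaged 0.200 ± 0.0094 in HDM and 0.192 ± 0.0053 in saline, and that of Bex1 to Bex4 3.54 ± 0.196 in HDM and 3.21 ± 0.121 in saline. The Tceal3 to Tceal5 ratio was 3.44, 3.18, 3.41 and 3.12 in the HDM pools and 3.69, 3.88, 3.94 and 3.86 in the saline pools, with no overlap. The Tceal3 to Tceal6 ratio averaged 7.07 ± 0.269 in HDM and 7.59 ± 0.596 in saline.

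Where each read was counted for a single gene, sums of close copies do not depend on how reads were split within them. Whether reads that fit several genes were counted in this way is not given in the sources used here. Counts of Bex1 and Bex2 together gave 184, 189, 175 and 174 CPM in the HDM pools and 153, 145, 142 and 145 CPM in the saline pools, a log2 fold change of 0.30 (SE 0.043). Counts of Tceal3, Tceal5 and Tceal6 together gave 76.5, 81.2, 68.4 and 65.3 CPM in the HDM pools and 59.6, 52.3, 53.7 and 51.0 CPM in the saline pools, a log2 fold change of 0.43 (SE 0.070). The groups of both sums were separate, as were those of each of these genes, so the sums are a description. The effect of reads assigned to the wrong copy outside these sums, such as between Bex1 and Bex4, was not tested.

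Tceal7 and Bex6 are the other mouse genes of these families in the table. Tceal7, whose human counterpart is known for low expression in ovarian tumours, had 27, 17, 16 and 20 counts in the HDM pools and 11, 5, 13 and 15 counts in the saline pools. That is 1.13, 0.647, 0.636 and 0.755 CPM in HDM and 0.405, 0.159, 0.445 and 0.487 CPM in saline, and the groups did not overlap. Its log2 fold change was 1.07 (SE 0.35, edgeR quasi-likelihood adjusted p = 0.131). Some of its few reads may belong to Bex1, since 157 of its 1166 50-base words also occur there and the exons of both overlap on opposite strands. Bex6, on chromosome 16, had 0 counts in all 8 libraries, which allows up to 0.0959 to 0.125 CPM per library at 3 counts and covers counting error only.

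The 10 genes lie within 1502.79 kb of chromosome X, from the lowest coordinate of Tceal6 at 135208687 to the highest of Tceal1 at 136711478. The table lists 67 genes there, of which 44 had no count in any library and 17 were tested. Besides the 10 genes these were Armcx5, Gprasp1, Bhlhb9, Gprasp2, Arxes2, Arxes1 and Tceal7. None of these 7 was called in either direction, and their median log2 fold change was 0.027. Gprasp1, which encodes a protein that binds G protein-coupled receptors and is the most abundant of the 7, averaged 520 ± 17.9 CPM in the HDM pools and 528 ± 13.7 CPM in the saline pools, a log2 fold change of −0.023 (SE 0.043, edgeR adjusted p = 0.813). It lies between Tceal6 and Bex2, both of which had separated groups.

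**Figure D4:**
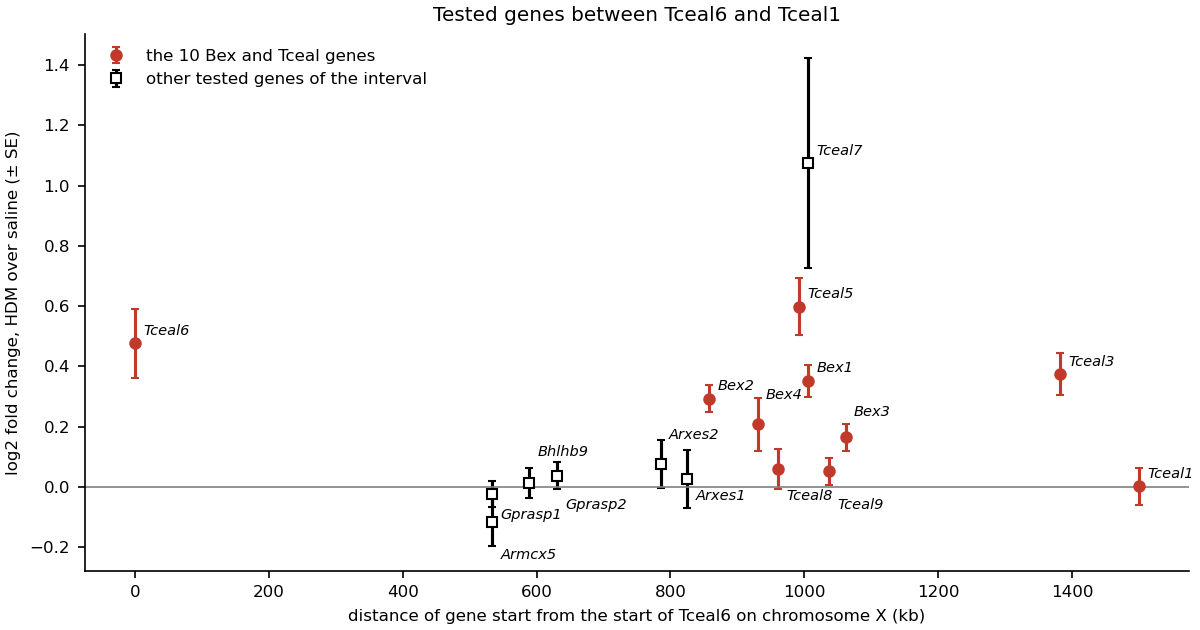
Log2 fold change, HDM over saline (± SE of the edgeR fit), against the distance of each gene's start from the start of Tceal6 on chromosome X in kb. Start here means the lowest coordinate of a gene on either strand. Filled red circles are the 10 Bex and Tceal genes and open squares the other 7 tested genes. The open squares other than Tceal7 lie between −0.12 and 0.076, and high and low red circles lie side by side, as with Tceal5 (0.60) and Tceal8 (0.061).

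Of the Armcx and Gprasp genes, the other families of this region, none was called among 9 tested. Their median log2 fold change was 0.013, in a range of −0.12 to 0.16. Armcx4, which carries the full element with the longer spacing, averaged 67.5 ± 2.24 CPM in the HDM pools and 60.6 ± 3.76 CPM in the saline pools with no overlap (log2 fold change 0.16, SE 0.051, edgeR adjusted p = 0.135). Armcx1 and Armcx6, which carry it with the shorter spacing, differed by a log2 fold change of 0.027 (SE 0.042) for Armcx1 and 0.0029 (SE 0.12) for Armcx6. Armcx2, Armcx3, Armcx5, Gprasp2 and Bhlhb9 had log2 fold changes of 0.055, −0.033, −0.12, 0.037 and 0.013 with edgeR adjusted p from 0.487 to 0.921. The relation of the element to the differences was not tested.

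In the p75 neurotrophin receptor pathway, in which Bex1 and Bex3 act, 1 of 12 tested genes was called higher and 0 lower. Ngfr, the receptor itself, averaged 922 ± 89.4 CPM in the HDM pools and 754 ± 36.2 CPM in the saline pools with no overlap (log2 fold change 0.29, SE 0.064, edgeR adjusted p = 0.0445). After a correction for GC content its log2 fold change was 0.17 and no gene of the table was called. Maged1, also called NRAGE, another p75NTR-binding adaptor, had a log2 fold change of 0.084 (SE 0.041, edgeR adjusted p = 0.301). The median of the pathway was 0.079.

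The list of RNA polymerase II elongation factors includes the TFIIS genes, from which the Tceal genes take their name. Of its 15 tested genes 2 were called higher and 0 lower. Supt5 and Supt6, which encode elongation factors that travel with the polymerase, rose by a log2 fold change of 0.20 (SE 0.042) for Supt5 and 0.19 (SE 0.041) for Supt6, with an edgeR adjusted p of 0.0390 for each. After the GC correction they stood at 0.11 for Supt5 and 0.15 for Supt6, and neither was called. Tcea1, Tcea2 and Tcea3, the TFIIS genes themselves, were looked up after the values were seen and had −0.060, −0.018 and −0.069, none of them called. Ccnt2 and Ccnt1, cyclins of the elongation kinase P-TEFb, had −0.15 and −0.14 (edgeR adjusted p = 0.141 and 0.184). The median of this list was −0.018.

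Markers of neurons and of other cells of the ganglion were read beside the 10 genes. The 16 pan-neuronal markers summed to 14802 to 15872 CPM in the HDM pools and 13994 to 14414 CPM in the saline pools, without overlap, and their median log2 fold change was 0.11, with 10 of 16 above 0. Nefm and Prph, intermediate filaments of peripheral neurons, rose by a log2 fold change of 0.32 and 0.26 (edgeR adjusted p = 0.0206 and 0.0219), 2 of 16 in all, and 6 of 16 were called higher with the replicate block. Tubb3, a neuronal tubulin, had 0.19 (edgeR adjusted p = 0.0606) and Gap43, a growth cone protein, 0.18 (0.0711). After the GC correction Nefm stood at 0.22, Prph at 0.13, Tubb3 at 0.084 and the median of the list at 0.067, and none was called. Scn9a, a sodium channel of sensory neurons, had the lowest value of the list, −0.17 (edgeR adjusted p = 0.208). When libraries were scaled on these 16 markers instead of all genes, the median log2 fold change of the 10 genes was 0.16, and Bex1, Bex2, Tceal3 and Tceal5 stood at 0.26, 0.20, 0.28 and 0.50. Bex3 and Bex4 stood at 0.073 and 0.12, and Tceal6 at 0.38. That scaling set the median of all tested genes at −0.096, with 80 genes called higher and 1138 lower, and Tceal1, Tceal8 and Tceal9 then had negative values of −0.088, −0.029 and −0.038.

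The 12 markers of myelinating Schwann cells had a median log2 fold change of −0.19 and summed to 2763 to 3054 CPM in HDM and 2891 to 3535 CPM in saline. Pmp22 and Ugt8a, both genes of myelin, fell by 0.23 and 0.33 on the log2 scale (edgeR adjusted p = 0.0336 and 0.0422). The sums of 8 satellite glia markers, 3121 to 3439 CPM in HDM and 2873 to 3468 CPM in saline, overlapped. Endothelial, macrophage and fibroblast markers gave no call among 7, 8 and 6 genes, with median log2 fold changes of −0.031, −0.11 and −0.12. The part of cell composition in the values of the 10 genes was not tested beyond the scaling above.

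Marker RNA of some neuron subtypes varied between pools. The 6 noradrenergic markers, genes of sympathetic neurons that lie near these ganglia, summed to 764 CPM in HDM 4 and 258 to 288 CPM in the other HDM pools, against 121 to 334 CPM in the saline pools, and none was called. The median log2 fold change of these noradrenergic markers was 1.01, with 6 of 6 above 0. Their relation to the values of the 10 genes was not tested. The 5 markers of nodose neurons had a median log2 fold change of 0.33, with 0 called (3 with the replicate block), and of the 3 tested jugular neuron markers 0 were called (1 with the block). Xist, the RNA of the inactive X chromosome, was at 0.0837 to 0.358 CPM in HDM and 0.0325 to 0.331 CPM in saline, near the limit of detection in both groups.

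The fold changes held their sign for the 7 separated genes under each of the alternatives run, while their calls did not hold under all of them. These 7 are the genes whose groups did not overlap in these same libraries. Their kept sign was thus largely fixed in advance, above all with 1 library left out, and nothing is read from it. A correction for GC content left 0 of the 10 called and 0 of all 17618 tested genes, and leaving out HDM 1, HDM 2 or saline 3 also left 0 of the 10 and 0 of all genes called. Without saline 2 Tceal3 was not called. The transcripts of Bex1, Bex2, Bex3, Tceal5 and Tceal6 have GC contents of 52.8% to 54.5%, above the median of 49.5% over all tested genes, and those of Tceal1, Tceal3, Tceal8, Tceal9 and Bex4 have 38.6% to 47.7%. After the correction the median log2 fold change of the 10 genes was 0.23, with Bex1 at 0.29, Bex2 at 0.22, Bex3 at 0.11, Bex4 at 0.24, Tceal3 at 0.45, Tceal5 at 0.55 and Tceal6 at 0.41. Tceal1, Tceal8 and Tceal9, the genes of overlapping groups, stood at 0.087, 0.13 and 0.13.

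**Figure D5:**
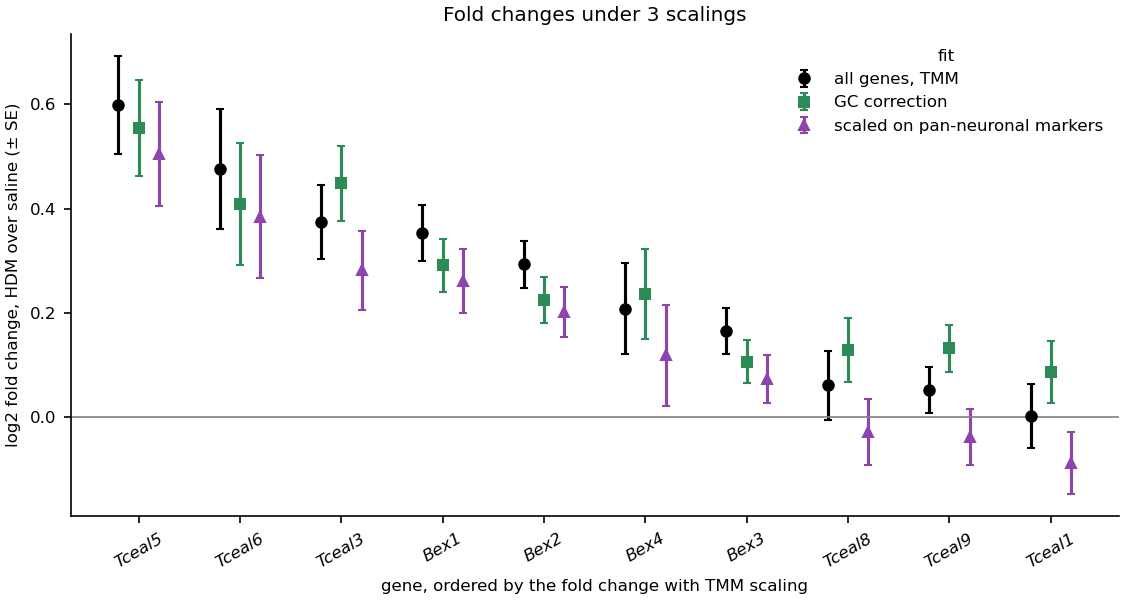
Log2 fold change, HDM over saline (± SE), of each gene with TMM scaling on all genes (black circles), with the GC correction (green squares) and with scaling on the pan-neuronal markers (purple triangles). Tceal5, Tceal6, Tceal3, Bex1, Bex2, Bex4 and Bex3 lie above 0 under all 3, and Tceal8, Tceal9 and Tceal1 cross it.

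Genes whose levels followed the mean course of the 10 most closely were sought over the 8 libraries, by the root mean square (RMS) difference of centred log2 CPM. Among 10946 other genes with a mean log2 CPM of at least 3, the nearest were Dut (0.0336), Hpca (0.0356), Eml2 (0.0375), Pdap1 (0.0412) and Mrps34 (0.0419), in log2 units. Dut encodes a nucleotide hydrolase, Hpca a neuronal calcium sensor, Eml2 a microtubule-associated protein and Mrps34 a protein of the mitochondrial ribosome. None lies on chromosome X, and their log2 fold changes were between 0.21 and 0.31. The 10 genes themselves lay at 0.038 (Bex2) to 0.19 (Tceal5) from their mean course, with Bex1 at 0.064, Bex4 at 0.066, Bex3 at 0.074 and Tceal3 at 0.085. Likeness in this measure follows the difference between HDM and saline as well as the pools, and it describes 8 libraries.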

How the data were processed

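The deposited table holds raw counts per gene, made by the authors with featureCounts on GRCm38 (mm10), per the submitters' processing notes. The gene length that the deposited table gives in bases was used for levels per kb. The aligner, versions, strand setting and the handling of reads that fit several genes were not given in the sources used here. Libraries were made with a stranded mRNA kit, per the labels' protocols. Columns were matched to samples by the column names in the labels. Symbols, transcripts and GC content come from GENCODE M21, and promoter windows from RefSeq, where all 10 genes matched.

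Genes were filtered with filterByExpr of edgeR 4.0.16 (R 4.3.3), scaled by TMM, and fitted over all 8 libraries with group as the only term by the quasi-likelihood F-test (2-sided), with Benjamini-Hochberg adjustment over 17618 genes and calls under 0.05. Levels are CPM with TMM factors. P-values set the difference between the groups against the spread between pools, not between single animals. The fit was tested on simulated counts. The GC correction is an offset from a natural spline with 4 degrees of freedom, fitted where the mean log2 CPM is above 3. Alternatives were other size factors, filters, DESeq2 1.42.0, voom of limma 3.58.1, GC and length corrections, scaling on neuronal markers, summed paralogs, a threshold of 0.10, leaving out each library, and the replicate block.

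The batch labels pair the libraries. The batch number of each library is the same as its replicate number. Over genes, libraries of 1 number deviated from the means of their groups with correlations of −0.048 to 0.039. HDM 1, 2, 3 and 4 correlated best with saline 4, 4, 1 and 2, never with the pool of their own number. The counts thus do not show the pairing, and it rests on the labels alone. Differences within batches are differences between pools of the same number.

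The 10 genes and all gene lists were chosen with earlier results of these data known. Named are the 10 genes, the other Bex, Tceal, Armcx and Gprasp genes, the called genes and up to 2 others with the smallest p of each further list that is described, and the 5 nearest profiles. Some of the others are given as counts only, and some genes that this rule took are not reported here.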

Additional observations from a re-analysis of the deposited data

Results flagged for a closer look

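In 20 sets of 4 pools (10 genes in 2 groups), the pool farthest from the rest was compared with the range of its set, by Dixon's limit, which chance passes in about 1 of 20 sets. Bex3 in saline 4 stood at 119.7 CPM, with the other saline pools at 127.8 to 128.0 CPM, a gap of 0.984 of the range. Tceal5 in saline 1 stood at 11.5 CPM, with the other saline pools at 9.44 to 9.79 CPM, a gap of 0.835 of the range. Without saline 4 the log2 fold change of Bex3 was 0.14, and without saline 1 that of Tceal5 was 0.66. No HDM pool passed the limit for any of the 10 genes.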

How the results depend on the processing

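Under 22 alternatives the median log2 fold change of the 10 genes (0.25) was 0.16 with scaling on neuronal markers and 0.165 over 7 features with paralogs summed, and 0.23 to 0.27 with 1 library left out. The number of the 10 called (4) was 0 with the GC correction, 1 (Tceal3) with the replicate block and GC correction, 2 of 7 features with paralogs summed, 6 with DESeq2 or a threshold of 0.10 (Bex3 and Tceal6 added), and 0 to 4 with 1 library left out. The replicate block alone left it at 4. Genes called over the table (244) were 722 without a filter, 713 with the replicate block, 27 with the replicate block and GC correction, 0 with the GC correction (2054 at an unadjusted p under 0.05), 532 with the replicate block and a length correction (added after seeing the data), 1218 with neuronal scaling, 871 with DESeq2, 709 at a threshold of 0.10, and 0 to 376 with 1 library left out. Leaving out HDM 1, HDM 2 and saline 3 gave 0, with 2449, 2452 and 2373 genes whose unadjusted p was under 0.05. Without HDM 4, saline 2 or HDM 3 there were 60, 97 and 376. The cause of these shifts was not tested. Of 215 values of single genes 174 kept sign and call. Tceal1 was below 0 in 14 of 22 alternatives, in a range of −0.088 to 0.087, and Tceal8 and Tceal9 in 1 each, the neuronal scaling. Depth limits Tceal6, Bex4 and Tceal7 most, with a counting error of up to 8.39%, 6.95% and 44.7% per library.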
